A study of Mus musculus with 5 samples.

Results

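The cells described here are fibroblasts of the mouse colon mesenchyme that carried the genes of a subepithelial type marked by F3 and Plau. They were taken from Drop-seq profiles, in which single cells are caught in droplets with barcoded beads and each captured polyadenylated RNA is tagged with a unique molecular identifier (UMI). A cell was counted when its barcode had 300 or more genes and at most 10% mitochondrial UMIs, and a UMI of at least 2 of 6 collagen-gate genes (Col1a2, Col3a1, Col6a1, Col6a2, Mmp2, Dcn). It also needed a UMI of at least 3 of the 6 gate genes F3, Plau, Slco4a1, Mmp10, Col6a4 and Ednrb, and a UMI of fewer than 2 of the 5 genes Rbp4, Aldh1a1, Tmem158, Enho and Bean1, which mark another subepithelial type. By this rule 156 cells were found among 4436 collagen-gated cells, 6005 barcodes past the gene and mitochondrial limits and 7935 barcodes in all. Their UMIs of the 6 gate genes chose them, so the levels of those genes are a description and were not tested.

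All samples were 1 group: untreated 10-week-old C57/BL6 mice kept under standard housing, whose colon mesenchyme was freshly dissociated with Collagenase XI and Dispase once the epithelium had been depleted with EDTA and DTT. Collections 1A and 1B were droplet collections of biological replicate 1, and 2A, 2B and 2C of biological replicate 2. There was no contrast between conditions, and the number of animals per replicate was not given in the sources used here. Collections of 1 replicate were not counted as separate replicates, so errors below are the SD of the 2 biological replicates.

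Subepithelial fibroblasts lie directly beneath the intestinal epithelium and secrete ligands of the BMP, Wnt, EGF and prostaglandin families that act on epithelial cells. F3 encodes tissue factor, the membrane receptor that starts blood coagulation by binding factor VII. Plau encodes urokinase, the protease that turns plasminogen into plasmin. Fibroblasts deeper in the mucosa and in the submucosa differ from them in matrix and signalling genes and often carry Cd34, Pi16 or Clec3b.

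The 156 cells came from every collection: 45 from 1A, 42 from 1B, 22 from 2A, 26 from 2B and 21 from 2C. They made up 3.54% ± 0.795 of the collagen-gated cells (mean ± SD of the biological replicates). The share was 4.10% in replicate 1 (exact Clopper-Pearson 95% interval 3.30 to 5.04%) and 2.98% in replicate 2 (2.33 to 3.76%), and the intervals overlapped. Intervals and floors here cover counting error only. The share is set by the rule: with at least 2 gate genes it was 8.45%, and with at least 4 it was 1.26%. No barcode of these cells was shared between collections, against 10 barcodes shared in all.

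The gated cells were deeper than the rest. Their median was 1925 UMIs and 945 genes per cell, against 1403 UMIs and 782.5 genes in the other 4280 collagen-gated cells. A rule that asks for UMIs of 3 of 6 genes favours cells with more UMIs. Their UMIs summed to 173305 in replicate 1 and 154753 in replicate 2. The median mitochondrial share was 4.52% against 4.67%. Levels are therefore given as CPM, counts per 1e6 UMIs of the summed cells. Unless marked as unthinned, shares of cells with a UMI are given after each cell was thinned to 1000 UMIs. Cells under 1000 UMIs were left out of the thinned shares, which kept 146 of 156 gated cells and 3050 of 4280 others.

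The collagen gate is broader than fibroblasts. Free RNA was not removed from the counts, no doublet caller was run, and markers of other cell types were present in both groups. Markers of B or plasma cells summed to 2613 CPM in the other collagen-gated cells and to 134 CPM in the gated cells, with 4 of the 6 measured markers at 0 in the latter. Macrophage markers summed to 787 CPM (524 to 1160 CPM over collections) against 67.1 CPM (22.1 to 123), and Mrc1 was at 0 in the gated cells. Epithelial markers were at 82.9 CPM and 64.0 CPM. Blood endothelial markers were uneven: 88.5 to 1719 CPM over the 5 collections of gated cells, against 846 to 1606 CPM. Lymphatic endothelial markers summed to 436 CPM (296 to 520 CPM) against 1026 CPM (764 to 1244 CPM). The endothelial gene Plvap had 80 UMIs in the gated cells, 40 of them in a single cell, and stood at 719 CPM in 2A and 540 CPM in 2B against 0 to 72.4 CPM in the other collections. At least 2 markers of some other type were in 53 gated cells (34.0%) and in 38.0% of the other collagen-gated cells. Counts for the gene lists in the comparison with the other collagen-gated cells are therefore also given without all such cells on either side, where fewer genes were tested. Beyond that, their part in the results was not tested.

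**Figure D1:**
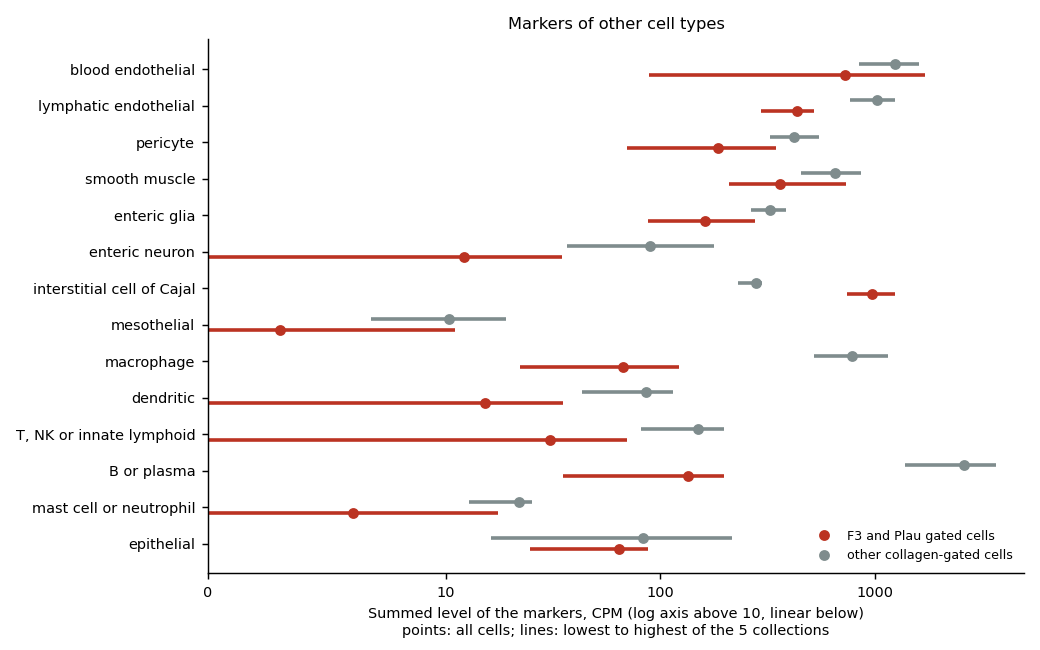
Summed level of the markers of 14 other cell types (CPM, log axis above 10), with points for all cells and lines from the lowest to the highest of the 5 collections. The gated cells lie below the other collagen-gated cells for macrophage (67.1 against 787 CPM) and B or plasma markers (134 against 2613 CPM). The collections of both groups overlap for several lists, among them blood endothelial, smooth muscle, pericyte, enteric glia and epithelial markers. For the markers of the interstitial cell of Cajal the gated cells lie above the others.

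The list for the interstitial cell of Cajal, the pacemaker cell of gut muscle, was the exception: its markers summed to 975 CPM in the gated cells (743 to 1250 CPM) and to 279 CPM in the others (232 to 298 CPM). Gja1, which encodes a gap junction protein, made up 829 CPM of that sum and Ano1, which encodes a chloride channel, 110 CPM. The defining gene Kit had 2 UMIs in the 156 cells and Edn3 had none. Of the gated cells, 24 had 2 of these markers, so leaving out cells with markers of another type also removed cells for carrying Gja1 and Ano1. Smooth muscle markers summed to 363 CPM (209 to 737 CPM) against 657 CPM (452 to 861 CPM), so the collections overlapped.

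Plau was the most widespread of the gate genes. Unthinned, it had a UMI in 89.7% of the gated cells, F3 in 82.1%, Ednrb in 75.6%, Slco4a1 in 39.1%, Col6a4 in 32.7% and Mmp10 in 24.4%. In the other collagen-gated cells these unthinned shares were 9.77%, 11.2%, 10.2%, 0.724%, 1.52% and 1.85%. After thinning they were 67.8%, 56.8%, 50.7%, 27.4%, 19.9% and 19.9% in the gated cells. In the other collagen-gated cells they were then 6.59%, 7.93%, 7.57%, 0.459%, 0.820% and 1.51%. Unthinned, F3 and Plau were found together in 115 of the 156 cells (73.7%), and F3, Plau and Ednrb, the endothelin B receptor, in 84 (53.8%). Most of the cells thus entered through these 3 genes.

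Plau was at 2234, 1822, 1333, 1098 and 1685 CPM in collections 1A, 1B, 2A, 2B and 2C. Its lowest value lay above the highest of the other collagen-gated cells, 118 CPM. F3 was at 973, 1146, 456, 1011 and 1041 CPM, with 2A below the other collections, and at 83.9 to 132 CPM in the reference. Ednrb was at 844 CPM ± 96.3 against 109 CPM ± 0.685. Slco4a1, an organic anion transporter, was at 276 CPM ± 34.0 against 5.16 CPM ± 0.814. Col6a4, a collagen VI chain, was at 210 CPM ± 3.90 against 9.69 CPM ± 2.53. Mmp10, the protease stromelysin-2, was at 105 CPM in 2A and 297 to 553 CPM in the other collections. Of the genes that the rule requires for collagen, Dcn, the proteoglycan decorin, was at 1160 CPM ± 23.6 in the gated cells and 6257 CPM ± 469 in the others. Mmp2 went the other way, at 939 CPM ± 84.4 and 375 CPM ± 23.5.

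The limit of the rule cuts through a falling series of cell counts. Among collagen-gated cells outside the Rbp4 and Aldh1a1 gate, 2965 had no gate gene with a UMI, 776 had 1, 218 had 2, 101 had 3, 44 had 4, 9 had 5 and 2 had all 6. Median depth was 1852 UMIs just outside the limit, at 2 gate genes, and 1806 UMIs just inside it, at 3. A further 28, 5 and 1 cells with 3, 4 and 5 gate genes were set aside for their Rbp4 and Aldh1a1 gate genes, and 86 of the 156 cells had a UMI of 1 of those genes.

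Several genes outside the rule followed the number of gate genes. Nrg1 was at 18.7 CPM in cells with 0 gate genes, 62.7 with 1, 225 with 2, 947 with 3 and 1857 with 4 to 6. Ptgs2 went from 192 through 333, 788 and 2132 to 4605 CPM over the same classes. Bmp5 and Fgf9 instead stood level inside the limit, Bmp5 at 575 CPM with 3 and 569 CPM with 4 to 6, and Fgf9 at 213 and 198 CPM. Among genes of other fibroblasts, Clec3b went from 654 CPM with 0 gate genes to 69.9 with 2, 43.5 with 3 and 24.8 with 4 to 6. Timp3 was at 1190, 1422 and 1388 CPM with 0, 1 and 2 gate genes and at 459 CPM with 3. Markers of other cell types also changed over the classes with 0, 1, 2 and 3 gate genes. The lymphatic marker Ccl21a was at 200, 459, 549 and 4.83 CPM. Plvap was at 233, 486, 702 and 372 CPM, and Mrc1 at 51.1, 145, 113 and 0 CPM. Igkc, a B or plasma cell marker, was at 2723, 3675, 332 and 135 CPM. The classes thus also differ in RNA of other cell types. Deeper cells have more gate genes, so these classes also differ in depth.

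**Figure D2:**
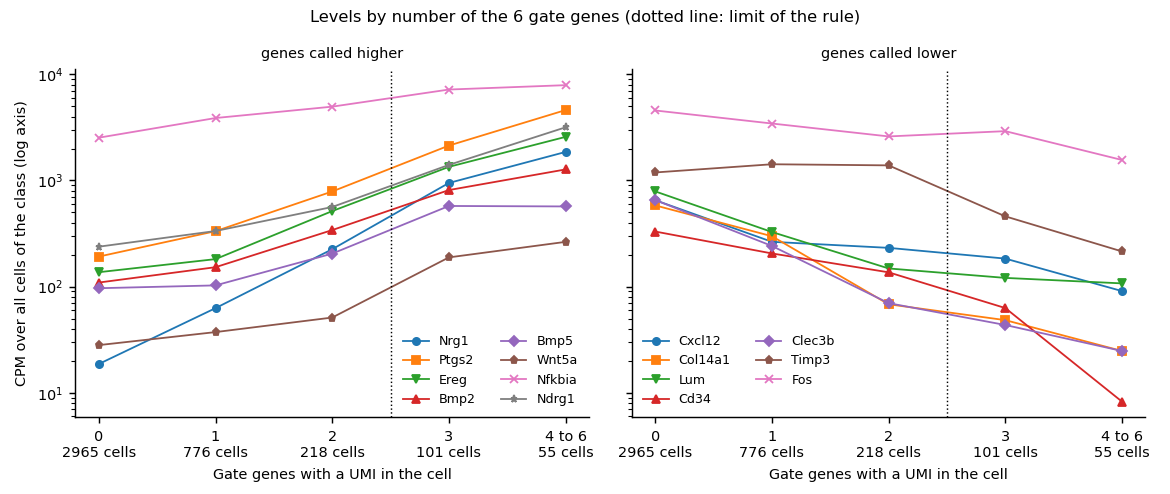
Level (CPM, log axis) in collagen-gated cells grouped by how many of the 6 gate genes had a UMI, for genes called higher (left) and lower (right) in the gated cells. The dotted line is the limit of the rule. Nrg1 goes from 18.7 CPM at 0 gate genes to 1857 CPM at 4 to 6, while Timp3 stays between 1190 and 1422 CPM up to 2 gate genes and is at 459 CPM at 3.

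To ask which other genes set these cells apart, UMIs were summed per biological replicate in the gated cells and in the other collagen-gated cells and compared with edgeR's quasi-likelihood test, with the replicate as a block. A gene is called where its p, adjusted by the Benjamini-Hochberg method over the 10490 genes tested, was under 0.05. Fold changes are on the log2 scale, ± SE of the fit. Of the genes tested, 408 (3.89%) were called higher and 275 (2.62%) lower, together 6.51%. The counts for gene lists below are to be read beside these shares. Scaling by total UMIs alone gave 372 and 561, DESeq2 gave 285 and 117, and leaving out cells with markers of another type gave 432 (5.7% of 7585) and 292 (3.85%). All genes tested had a median log2 fold change of -0.22, which moved to -0.39 without TMM factors. The cells were gated on genes that earlier results of these same cells had shown, so the p-values are smaller than in independent cells. Levels of all 5 collections of gated cells lay above those of the reference for 350 genes (3.34%) and below them for 1567 (14.9%), the latter often near 0 UMIs.

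Ligands of the EGF family, which drive growth and repair of the epithelium through ErbB receptors, stood out by size. Of 5 tested members 3 were called higher and 0 lower (3 and 0 of 4 without cells with markers of another type). Nrg1, which encodes neuregulin 1 (chromosome 8, 31814551 to 32884029 on GRCm38), was at 1570, 1713, 965, 819 and 867 CPM in collections 1A, 1B, 2A, 2B and 2C of the gated cells. In the other collagen-gated cells it lay between 50.6 and 63.7 CPM. Both collections of replicate 1 were above all of replicate 2, and all 5 were far above the reference. The log2 fold change was 4.60 ± 0.20 (edgeR, adjusted p = 9.6e-12), the largest positive value among the genes named by the rule. At 1000 UMIs per cell, Nrg1 had a UMI in 63.7% of the gated cells and in 5.05% of the others.

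Ereg, which encodes epiregulin (chromosome 5, 91074622 to 91093646), was at 2732, 1508, 1403, 1185 and 1735 CPM against 161 to 226 CPM. Its groups did not overlap, and it was higher by 3.26 ± 0.17 (edgeR, adjusted p = 1.5e-10). Areg, which encodes amphiregulin and lies next to Ereg (91139599 to 91148432), was at 310, 784, 368, 139 and 471 CPM against 39.0 to 69.2 CPM. It had 70.2% of its UMIs in 10% of the cells and a UMI in 17.1% of the thinned cells, and was higher by 3.17 ± 0.28 (edgeR, adjusted p = 3.5e-07). Hbegf did not pass the test, at 151 CPM ± 33.6 against 238 CPM ± 25.3, and was called higher at 2 or more gate genes. The calls of Nrg1, Ereg and Areg held under every alternative with a test.

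**Figure D3:**
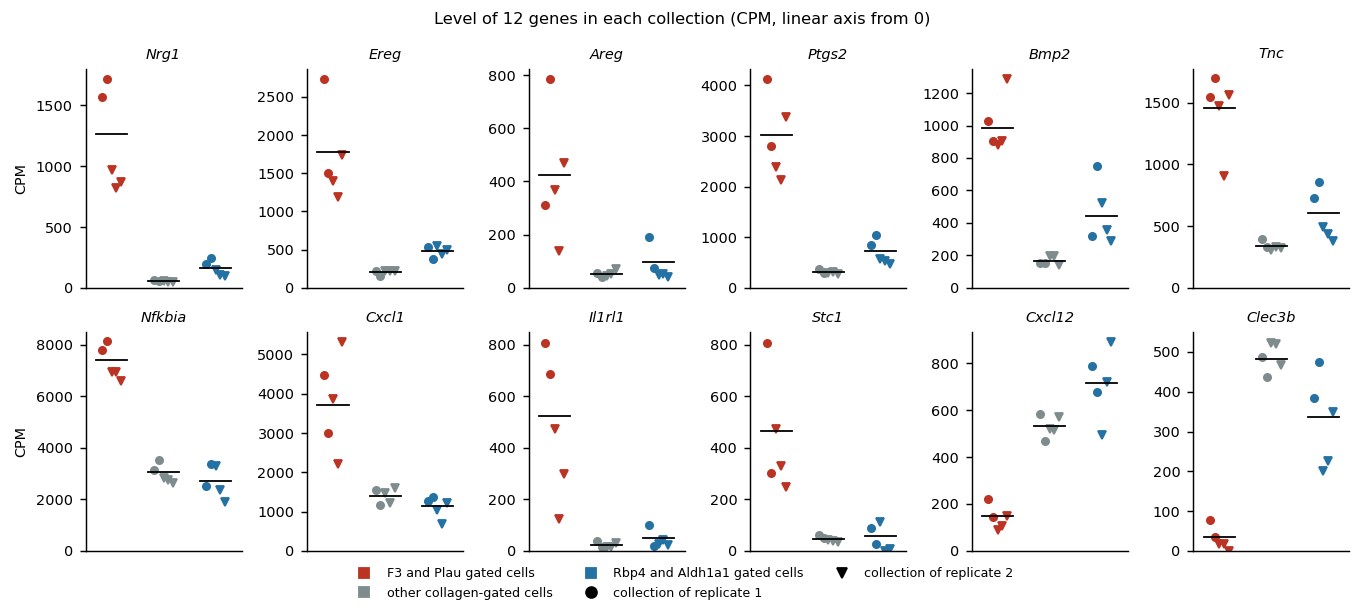
Levels of 12 genes (CPM, linear axes from 0) in the 5 collections of the gated cells, the other collagen-gated cells and the Rbp4 and Aldh1a1 gated cells, with bars at the mean of the 2 biological replicates. For Nrg1 the gated cells lie at 819 to 1713 CPM, above the 50.6 to 63.7 CPM of the other collagen-gated cells, and for Cxcl12 at 87.7 to 221 CPM, below 470 to 584 CPM.

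Genes of prostaglandin synthesis were called in both directions. Of 19 tested members of the prostanoid and lipid mediator list, 5 were called higher and 2 lower (4 and 2 of 15 without cells with markers of another type). Ptgs2, the inducible cyclooxygenase (chromosome 1, 150100031 to 150108227), was at 4125, 2799, 2385, 2126 and 3370 CPM against 275 to 374 CPM. It was higher by 3.42 ± 0.12 (edgeR, adjusted p = 3.4e-13), with a UMI in 76.0% of the thinned cells against 17.6%. Pla2g4a, the cytosolic phospholipase A2 that frees arachidonic acid, was at 552 CPM ± 14.0 against 143 CPM ± 23.9. Ptgs1, the constitutive cyclooxygenase, was at 290 CPM ± 71.7 against 90.5 CPM ± 1.80. Ptges, the terminal synthase of prostaglandin E2, was at 209 CPM ± 30.7 against 60.0 CPM ± 0.659. The log2 fold changes of these 3 genes lay between 1.84 and 2.13. Ptger2, a prostaglandin E2 receptor, rested on 20 UMIs and was higher by 2.72 ± 0.54 (edgeR, adjusted p = 0.002527), a call lost without collection 1A, after thinning and without cells with markers of another type. The lower members were Slco2b1, a transporter with 0 UMIs in the gated cells, and Hpgds, the hematopoietic prostaglandin D synthase, with 1. Slco2b1 was at least 4.48-fold lower, against a floor of 3 UMIs over the group (9.14 CPM). Both lower calls were lost with 2 or more gate genes. Hpgds was also not among the lower members without cells with markers of another type, where fewer genes were tested. Ptgis, the prostacyclin synthase, had 3 UMIs in the gated cells against 322 and was not called, but was called lower without cells with markers of another type.

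Bone morphogenetic proteins restrain growth at the top of the crypt, and their antagonists keep the crypt base open to stem cells. Of 22 tested ligands, antagonists and targets, 9 were called higher and 2 lower (8 and 4 of 19 without cells with markers of another type). Bmp2 was at 1029, 905, 877, 906 and 1289 CPM against 138 to 195 CPM, with no overlap, and was higher by 2.74 ± 0.17 (edgeR, adjusted p = 1.3e-09). Bmp5 (569 CPM ± 101 against 141 CPM ± 22.6) and Bmp7 (140 CPM ± 58.6 against 28.4 CPM ± 9.22) were higher by 2.19 ± 0.22 and 2.44 ± 0.37. Bmp4 was not called, at 467 CPM ± 97.7 against 543 CPM ± 133, but was called lower without cells with markers of another type. Id1, a transcriptional target of BMP signalling, was at 844 CPM ± 361 against 282 CPM ± 21.1 and was called higher. The antagonists were split. Fst, which encodes the activin-binding follistatin, was at 210, 229, 17.5, 52.3 and 273 CPM against 6.87 to 24.2 CPM, so collection 2A overlapped with the reference although the gene was called higher (3.43 ± 0.39; edgeR, adjusted p = 5.6e-06). Grem1, which encodes the BMP antagonist gremlin 1, had 2 UMIs in the gated cells against 1202 in the others, a ratio of 25.4 (7.04 to 210 by counting error), and was called lower.

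Of 16 tested Wnt ligands, R-spondins and antagonists, 1 was called higher and 2 lower (1 and 2 of 10 without cells with markers of another type). Over all genes tested the shares were 3.89% higher and 2.62% lower. Wnt5a, a ligand of the non-canonical pathway, was at 111, 290, 281, 174 and 273 CPM against 33.8 to 58.5 CPM, and higher by 2.57 ± 0.30 (edgeR, adjusted p = 9.9e-06). Sfrp1, a secreted Wnt inhibitor, was at 148 CPM ± 35.6 against 482 CPM ± 0.491. Wnt2b had 0 UMIs and was at least 3.10-fold lower, a call lost without collection 1A, without 2B and under 3 other alternatives. Rspo3, an amplifier of Wnt signalling, also had 0 UMIs but was not called. No tested member of the Hedgehog list was called by edgeR (0 of 10; 3 at an unadjusted p under 0.05, 0 by DESeq2). Without cells with markers of another type, Gas1, a Hedgehog co-receptor, was called lower, 1 of 7. Of 12 tested Notch genes 2 were called higher (1 of 4 without cells with markers of another type). The ligand Dll1 was at 199 and 217 CPM in replicate 1 and 35.1 to 99.1 CPM in replicate 2, and its log2 fold change of 2.27 ± 0.44 moved from 1.14 without replicate 1 to 2.98 without replicate 2. Hes1, a target of Notch, was at 2146 to 5086 CPM against 2508 to 3532 CPM and its call was lost under 7 alternatives, among them without collection 1B, with a log2 fold change of -0.0791 at 4 or more gate genes.

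Of 35 tested growth and neurotrophic factors, 10 were called higher and 2 lower (10 and 3 of 28 without cells with markers of another type). Fgf7, the keratinocyte growth factor, was at 641, 796, 596, 401 and 347 CPM against 65.9 to 101 CPM, and higher by 2.92 ± 0.24 (edgeR, adjusted p = 6.4e-08). Fgf9 was at 207 CPM ± 0.668 against 30.3 CPM ± 1.41. Vegfa, the main growth factor of blood vessels, was at 387, 495, 351, 418 and 372 CPM against 63.7 to 82.4 CPM, with little spread between collections. Gdnf, a survival factor of enteric neurons, was at 376, 96.5, 175, 261 and 297 CPM against 30.9 to 37.3 CPM, and higher by 2.99 ± 0.30. Inhba, a subunit of activin, was at 376 and 290 CPM in replicate 1 and 157 to 173 CPM in replicate 2 against 14.8 to 36.4 CPM. Its log2 fold change of 3.33 ± 0.35 moved from 2.59 without replicate 1 to 3.93 without replicate 2. Wisp1, a matricellular protein, rested on 32 UMIs and was higher by 3.49 ± 0.49. It was at 17.5 CPM in 2A and 17.4 CPM in 2B against 124 to 157 CPM in the other collections. Igf1 (50.3 CPM ± 38.5 against 170 CPM ± 3.52) and Ctgf (27.7 CPM ± 6.53 against 134 CPM ± 48.3) were called lower. Calls were lost for Igf1 with DESeq2 and for Ctgf at 4 or more gate genes. The log2 fold change of Igf1 was -1.65, with -1.02 without replicate 1 and -2.61 without replicate 2.

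Several of the largest differences were in genes of no single pathway. Il1rl1, the receptor of interleukin 33 (chromosome 1, 40429570 to 40465415), was at 807, 688, 474, 122 and 297 CPM against 13.7 to 37.5 CPM. It was higher by 4.58 ± 0.29 (edgeR, adjusted p = 2e-09), and 72.2% of its UMIs were in 10% of the cells. Stc1, which encodes the secreted glycoprotein stanniocalcin 1, was at 807, 302, 474, 331 and 248 CPM against 33.1 to 60.7 CPM, and higher by 3.47 ± 0.25 (edgeR, adjusted p = 1.4e-08). Abhd17c, a depalmitoylating enzyme, was higher by 3.84 ± 0.46 on 36 UMIs. Glp2r, the receptor of glucagon-like peptide 2, was at 72.0 CPM ± 28.7 against 7.47 CPM ± 1.70 on 24 UMIs. Lipg, the endothelial lipase, was at 265 CPM ± 82.3 against 31.1 CPM ± 0.403. Ndrg1, named after its values were seen, was among the most abundant, at 2732, 2509, 1210, 1411 and 1710 CPM against 216 to 350 CPM. The call of Glp2r was lost at 4 or more gate genes, and the others held.

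Receptors and ligands that act on vessels and muscle were partly higher: 5 of 21 tested members of the endothelin and vasoactive list were called higher and 2 lower (5 and 2 of 15 without cells with markers of another type). Besides Ednrb, which was part of the rule, these were the ligand Edn1 (161 CPM ± 56.0 against 58.1 CPM ± 7.98) and Ece1, the enzyme that activates it (549 CPM ± 63.9 against 318 CPM ± 40.6). Edn1 was at 66.4 CPM in 1A, within the 39.5 to 76.5 CPM of the reference, and at 175 to 223 CPM in the other collections. Ednra, the endothelin A receptor, did not pass the test at 73.4 CPM ± 5.87 against 49.8 CPM ± 1.91. The bradykinin receptors Bdkrb1 and Bdkrb2 were higher by 2.38 ± 0.43 and 3.14 ± 0.55, on 30 and 22 UMIs, and Bdkrb2 lost its call at 4 or more gate genes. Agt, the precursor of angiotensin, was at 318 CPM ± 90.1 against 81.8 CPM ± 25.2. The lower members were Calcrl and Ramp3, which form receptors for adrenomedullin. They had 5 UMIs each, and both calls were lost with DESeq2. That of Ramp3 was also lost without collection 1A or 2C and without cells with markers of another type. Endothelial cells express both genes, and of their markers the lymphatic ones were lower in the gated cells while the blood endothelial ones overlapped, as given above.

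Of 16 tested genes of coagulation and fibrinolysis other than F3 and Plau, 3 were called higher and 3 lower (3 and 3 of 14 without cells with markers of another type). Procr, the receptor of protein C, was at 719, 664, 421, 645 and 942 CPM against 114 to 151 CPM, and higher by 2.53 ± 0.20 (edgeR, adjusted p = 5e-08). F2r, the thrombin receptor, was at 348 CPM ± 54.0 against 109 CPM ± 18.7. Plat, the tissue plasminogen activator, was at 326 CPM ± 68.7 against 103 CPM ± 0.0511. Thbd, which encodes thrombomodulin, was at 39.6 CPM ± 1.15 against 157 CPM ± 28.6 and was called lower. So were the protease inhibitors Serpine2 and Serpinf1, on 8 and 2 UMIs. Plaur, the urokinase receptor, did not pass the test at 72.9 CPM ± 70.5 against 78.6 CPM ± 4.39. The call of Thbd was lost with 2 or more gate genes, and those of Serpine2 and Serpinf1 with DESeq2; Serpine2 also lost it without collection 2C.

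Matrix genes moved both ways. Tnc, which encodes tenascin C, was at 1548, 1701, 1473, 906 and 1561 CPM against 304 to 392 CPM, and higher by 2.25 ± 0.14 (edgeR, adjusted p = 1.3e-09). Of 30 tested matrix glycoproteins and laminins 5 were called higher and 8 lower. The laminin chains were divided: Lama5 (139 CPM ± 32.0 against 27.8 CPM ± 5.38) and Lamb1 (734 CPM ± 5.93 against 341 CPM ± 4.86) were higher, and Lama2 (15.8 CPM ± 14.2 against 125 CPM ± 9.71) was lower. Has1, a hyaluronan synthase, was at 42.1 CPM ± 13.9 against 325 CPM ± 3.62. The proteoglycan Lum was at 114 CPM ± 34.0 against 602 CPM ± 3.29 and lower in every collection. Of 18 collagen genes outside the gate 3 were called higher and 3 lower (2 and 6 of 17 without cells with markers of another type). Col4a5, a basement membrane chain, was at 248 CPM ± 40.5 against 51.0 CPM ± 9.41, and Col4a6 at 61.5 CPM ± 13.5 against 12.9 CPM ± 2.04. Col6a3, a partner chain of collagen VI, was at 347 CPM ± 24.0 against 158 CPM ± 2.16. Col14a1, a fibril-associated collagen, was at 38.9 CPM ± 18.4 against 438 CPM ± 43.2, or lower by a log2 fold change of -3.31 ± 0.32 (edgeR, adjusted p = 7.3e-07). The calls of Col4a6 and Col6a3 were each lost under 3 alternatives. With cells of another type's markers left out, 4 matrix glycoproteins were higher and 18 of 29 lower.

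Of 24 tested proteases and inhibitors of the matrix, 3 were called higher and 3 lower (1 and 3 of 20 without cells with markers of another type). Timp3, the inhibitor that binds to matrix, was at 166, 471, 579, 349 and 347 CPM against 1123 to 1333 CPM, and lower by -1.55 ± 0.16 on the log2 scale (edgeR, adjusted p = 2.3e-06), a call lost with 2 or more gate genes. Adamts2, the procollagen protease, was lower on 6 UMIs. Timp1 and Adamts4 were called higher by 1.53 ± 0.41 and 0.78 ± 0.20, calls that DESeq2 did not make. Timp1 also lost its call without collection 1A, and Adamts4 was at 0.34 without replicate 1 and 1.16 without replicate 2. Adamdec1, a metalloprotease of the lamina propria, was at 2770 CPM ± 326 against 2112 CPM ± 452. Its groups overlapped, and its call of 0.57 ± 0.13 turned to -0.13 among cells with at least 5 collagen-gate genes and no markers of another type. Mmp13 was at 11.1, 253, 140, 17.4 and 0 CPM and did not pass the test.

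Of 23 tested genes of the NF-kappaB pathway and its feedback, 11 were called higher and 1 lower (12 and 0 without cells with markers of another type), with a median log2 fold change of 0.64 against -0.22 over all genes tested. NF-kappaB is a transcription factor of inflammatory signals, held in the cytoplasm by inhibitors such as the protein of Nfkbia, which is itself a target. The list summed to 1.72% ± 0.191 of all UMIs in the gated cells (1.45 to 1.88% over collections) and to 0.787% ± 0.0756 in the others (0.728 to 0.880%). Most of the sum in the gated cells lay in 2 genes, Nfkbia with 2445 UMIs and Ier3 with 1324 UMIs. Nfkbia was at 7819, 8168, 6963, 6935 and 6592 CPM against 2631 to 3539 CPM, and higher by 1.45 ± 0.07 (edgeR, adjusted p = 5.9e-11). Ier3, an early response gene that limits cell death, was at 4170, 3656, 3262, 4461 and 5006 CPM against 1124 to 1373 CPM, and higher by 1.91 ± 0.09. Tnfaip3, which encodes the inhibitor A20, was at 564, 446, 368, 296 and 570 CPM against 143 to 194 CPM, and its partner Tnip1 at 283 CPM ± 16.2 against 122 CPM ± 22.4. The subunit genes Nfkb1 (242 CPM ± 123 against 113 CPM ± 16.6) and Rel (314 CPM ± 152 against 165 CPM ± 23.9) were also called higher. The 2 subunits moved with replicate 1: without it their log2 fold changes were 0.75 and 0.61, and without replicate 2 they were 1.62 and 1.44. Traf1 was lower on 4 UMIs, a call lost without collection 1A and with DESeq2. Calls were also lost for Sod2 without collection 2C, for Birc3 and Rel at 4 or more gate genes, and for Nfkb1 at a limit of 5% mitochondrial UMIs.

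The promoters of 3 members, and of 2 chemokine genes that are not in the list, are shown because the consensus site of the pathway's factor can be read in them. RefSeq's table on GRCm38.p6 gives 250 bases before and 50 after a start site, 5′ to 3′ on the gene's strand. Capitals mark matches to the NF-kappaB consensus on either strand, with overlapping matches joined.
Nfkbia, minus strand, chr12:55492598-55492897: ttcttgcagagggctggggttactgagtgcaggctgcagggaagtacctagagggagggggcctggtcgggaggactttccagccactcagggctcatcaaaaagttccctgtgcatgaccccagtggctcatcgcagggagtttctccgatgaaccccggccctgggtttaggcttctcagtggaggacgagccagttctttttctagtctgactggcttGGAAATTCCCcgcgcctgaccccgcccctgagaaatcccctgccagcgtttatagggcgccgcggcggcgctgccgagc
Tnfaip3, minus strand, chr10:19015361-19015660: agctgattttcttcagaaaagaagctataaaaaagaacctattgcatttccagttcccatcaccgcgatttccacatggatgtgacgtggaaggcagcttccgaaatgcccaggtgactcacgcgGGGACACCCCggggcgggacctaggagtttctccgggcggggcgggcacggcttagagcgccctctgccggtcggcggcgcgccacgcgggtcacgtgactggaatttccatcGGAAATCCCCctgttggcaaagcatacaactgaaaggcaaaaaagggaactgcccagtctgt
Ier3, plus strand, chr17:35821463-35821762: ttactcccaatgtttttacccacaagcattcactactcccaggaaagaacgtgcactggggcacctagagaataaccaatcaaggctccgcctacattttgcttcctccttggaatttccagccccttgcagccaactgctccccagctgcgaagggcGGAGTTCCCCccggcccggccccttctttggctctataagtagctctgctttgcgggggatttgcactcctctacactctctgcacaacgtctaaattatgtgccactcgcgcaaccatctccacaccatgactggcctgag
Cxcl1, plus strand, chr5:90890995-90891294: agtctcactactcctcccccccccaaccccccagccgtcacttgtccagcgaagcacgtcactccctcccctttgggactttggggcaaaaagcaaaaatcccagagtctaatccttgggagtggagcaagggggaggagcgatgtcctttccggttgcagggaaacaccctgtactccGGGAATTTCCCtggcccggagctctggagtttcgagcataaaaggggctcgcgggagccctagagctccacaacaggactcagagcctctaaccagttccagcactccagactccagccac
Cxcl10, minus strand, chr5:92348840-92349139: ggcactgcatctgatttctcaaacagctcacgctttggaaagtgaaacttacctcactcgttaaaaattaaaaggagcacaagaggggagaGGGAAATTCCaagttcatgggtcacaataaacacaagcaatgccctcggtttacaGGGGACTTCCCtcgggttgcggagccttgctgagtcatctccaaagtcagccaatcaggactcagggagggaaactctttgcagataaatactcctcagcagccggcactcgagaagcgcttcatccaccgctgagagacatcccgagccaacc
Counted from the start site, the matches begin at base -29 in Nfkbia, -125 and -12 in Tnfaip3, -92 in Ier3, -71 in Cxcl1, and -159 and -104 in Cxcl10. Of the 11 list members called higher, 8 had a promoter in the table (9 promoters), and 6 genes had a match: Ier3, Tnfaip3, Nfkbia, Tnip1, Sod2 and Rel. The promoters of Birc3 and Cebpb had none, and Nfkb1, Nfkbiz and Vcam1 were not matched. Counted by promoter, 6 of the 9 had a match, and the same consensus was in 8.46% of all 32851 promoters of this length. The list holds known genes of the pathway, and its members that were not called higher were not looked up. The matches therefore cannot be tied to the calls. Outside the list, 9 called genes were looked up, chosen after their values were seen. Cxcl1, Cxcl10 and 1 of 2 Irf1 promoters (at -13) held a match, Ptgs2, Areg and both Il1rl1 promoters held none, and Nrg1, Ereg and Bmp2 were not matched to the table. The Areg promoter held the cAMP response element TGACGTCA, a palindrome, at -61, a motif found in 1.79% of promoters. A match is a run of letters and not a measured binding site.

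Chemokine genes were called in both directions. Of 10 tested CXC and CX3C chemokines 3 were called higher and 2 lower (4 and 1 of 8 without cells with markers of another type). Cxcl1, which draws neutrophils, was at 4490, 3004, 3859, 2213 and 5328 CPM against 1180 to 1605 CPM, and higher by 1.57 ± 0.09 (edgeR, adjusted p = 8.8e-10). Cxcl10, which draws T cells, was at 689 CPM ± 69.9 against 346 CPM ± 68.9. Cxcl14 was at 664 and 603 CPM in replicate 1 and 175 to 273 CPM in replicate 2 against 41.1 to 80.0 CPM, and its log2 fold change of 2.99 ± 0.35 moved from 1.91 without replicate 1 to 3.89 without replicate 2. Cxcl12, which retains leukocytes and stem cells, was at 221, 145, 87.7, 105 and 149 CPM against 470 to 584 CPM, and lower by -1.69 ± 0.24 on the log2 scale (edgeR, adjusted p = 7.5e-05). Cxcl2 was not called, at 807 CPM ± 319 against 906 CPM ± 188, and its log2 fold change was -0.70 without replicate 1 and 0.64 without replicate 2. Without cells with markers of another type Cxcl2 was called higher, by 0.88 (edgeR, adjusted p = 0.0013), as it was at 2 or more gate genes.

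Of 28 tested CC chemokines and cytokines 1 was called higher and 8 lower (0 and 7 of 17 without cells with markers of another type). All genes tested had 3.89% higher and 2.62% lower. Of the 8 lower, Il1b, Il1rn, Ccl3, Ccl4 and Ccl21a, genes of macrophages or lymphatic endothelium, were not among the 7. Ccl21a is itself one of the markers by which cells were left out. With 17 members tested in place of 28, a gene can also be missing because it was no longer tested. A link to the lower macrophage and lymphatic markers given above was not tested. Csf1, the growth factor of macrophages, was at 401 CPM ± 110 against 172 CPM ± 10.5, a call lost without cells with markers of another type. Ccl11, which draws eosinophils, and Ccl8 had 0 UMIs in the gated cells and were at least 7.87-fold and 6.98-fold lower. DESeq2 made neither call. Of 14 tested acute-phase and complement genes 0 were called higher and 4 lower by edgeR (8 at an unadjusted p under 0.05, 4 called by DESeq2), and 1 higher and 5 lower of 9 without cells with markers of another type. The 1 higher was Saa3, which over all gated cells had 24 UMIs in 4 cells, 21 of them in 1 cell. With cells of other types' markers kept, its log2 fold change was -3.28 without collection 2C. C3 was at 12.2 CPM ± 0.978 against 171 CPM ± 27.5 and C4b at 11.9 CPM ± 7.67 against 124 CPM ± 4.05. Of 38 tested interferon and antigen presentation genes 2 were called higher and 7 lower (5 and 4 of 36 without cells with markers of another type). The share called higher was near the 3.89% of all genes tested. Irf1 was at 963 CPM ± 82.5 against 457 CPM ± 55.4, and higher by 1.24 ± 0.15 (edgeR, adjusted p = 9e-06). The class II genes Cd74 (160 CPM ± 30.0 against 2114 CPM ± 90.8) and H2-Aa were lower, beside the lower macrophage and B cell markers given above. Neither was lower by the test among cells with at least 5 collagen-gate genes and no markers of another type.

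Of 32 tested immediate-early and heat-shock genes, a class known to react to stress and to tissue dissociation, 14 were called higher and 2 lower (10 and 5 of 32 without cells with markers of another type). The list summed to 4.45% ± 0.240 of UMIs in the gated cells against 4.11% ± 0.0830, and the part of dissociation in the results was not tested. Nr4a1 was at 923 CPM ± 81.3 against 454 CPM ± 33.9, Nr4a2 at 419 CPM ± 109 against 147 CPM ± 12.9 and Hspb1 at 2151 CPM ± 595 against 796 CPM ± 120. Fos went the other way, at 2610, 1967, 2000, 2457 and 3420 CPM against 3890 to 4447 CPM, and was lower by -0.60 ± 0.08 on the log2 scale (edgeR, adjusted p = 6.9e-05). The call of Hspa1b, also lower, was lost with DESeq2 and without collection 1B. Of 11 tested cell cycle genes 0 were called by edgeR (2 at an unadjusted p under 0.05, 0 by DESeq2). Cell cycle genes summed to 0.0429% ± 0.00515 of UMIs in the gated cells against 0.0430% ± 0.00466 in the others. Without cells with markers of another type 2 were tested and Top2a, a topoisomerase of dividing cells, was called higher.

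The label was checked against published markers of subepithelial fibroblasts outside the gate, a list chosen with earlier results of these cells known. Of 25 tested members 13 were called higher and 2 lower (12 and 1 of 24 without cells with markers of another type), with a median log2 fold change of 1.51. Pdgfra, the receptor that marks these cells, was at 453, 615, 281, 401 and 421 CPM against 158 to 188 CPM, and higher by 1.51 ± 0.23 (edgeR, adjusted p = 0.00015). Nkx2-3, a homeobox factor of the gut mesenchyme, was at 332, 591, 772, 366 and 372 CPM against 164 to 200 CPM. Foxf1 was called higher at 169 CPM ± 38.2 against 71.3 CPM ± 0.473, with 2A at 35.1 CPM, a call lost at 4 or more gate genes and without cells with markers of another type. Foxl1 (29.5 CPM ± 23.5 against 6.33 CPM ± 1.02) and Sox6 (51.8 CPM ± 0.167 against 19.7 CPM ± 7.25) did not pass the test. Sox6, but not Foxl1, was called higher without cells with markers of another type. The contractile genes Acta2 (163 CPM ± 34.6 against 290 CPM ± 27.9) and Tagln (83.4 CPM ± 28.2 against 178 CPM ± 14.2), which mark myofibroblasts, were not called. Myh11, smooth muscle myosin, was called lower at 124 CPM ± 61.7 against 284 CPM ± 53.7 (edgeR, adjusted p = 0.04662), a call lost under 9 alternatives, among them without collection 1A or 1B. The other lower member was Cxcl12.

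Markers of adventitial or submucosal fibroblasts were lower in 16 of 24 tested members and higher in 1 (18 lower and 0 higher of 23 without cells with markers of another type). Clec3b, which encodes tetranectin, was at 77.4, 36.2, 17.5, 17.4 and 0 CPM against 438 to 523 CPM. It was lower by -3.56 ± 0.36 on the log2 scale (edgeR, adjusted p = 1.4e-06), with -5.10 without replicate 1 and -2.77 without replicate 2. Cd34 was at 43.5 CPM ± 20.7 against 269 CPM ± 0.515. Cd55, the complement decay factor, had 3 UMIs against 2381, a ratio of 33.6 (11.5 to 163), and Pi16 had 1 against 638, a ratio of 27.0 (4.84 to 1066). Osr1 had 0 UMIs and was at least 4.20-fold lower. The calls of Pi16 and Osr1 were lost at 4 or more gate genes. Efemp1, the only member called higher, was at 514 CPM ± 49.7 against 301 CPM ± 40.9, and that call was lost under 5 alternatives. Markers of lamina propria fibroblasts were lower in 9 of 14 tested members and higher in 1, Adamdec1 (11 lower and 0 higher of 14 without cells with markers of another type). Ces1d, a carboxylesterase, was at 11.9 CPM ± 7.67 against 159 CPM ± 25.9, and C1qtnf3 at 33.8 CPM ± 7.01 against 316 CPM ± 0.808.

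Of 51 tested transcription factors of mesenchyme and patterning 10 were called higher and 7 lower (8 and 7 of 46 without cells with markers of another type). Tbx3 was at 487, 410, 246, 209 and 273 CPM against 54.8 to 68.1 CPM, and higher by 2.68 ± 0.28 (edgeR, adjusted p = 2.4e-06). Sox9 was at 243 CPM ± 23.7 against 80.2 CPM ± 4.89, and higher in every collection. Twist2 was higher by 2.18 ± 0.47 on 21 UMIs, a call lost under 5 alternatives. Maf (27.3 CPM ± 2.12 against 142 CPM ± 3.60), Runx3, Mef2c and Osr1 were lower, and macrophages or lymphocytes also express Maf, Runx3 and Mef2c. The call of Maf was lost with 2 or more gate genes, that of Runx3 without collection 1A and that of Mef2c without collection 1B.

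**Figure D4:**
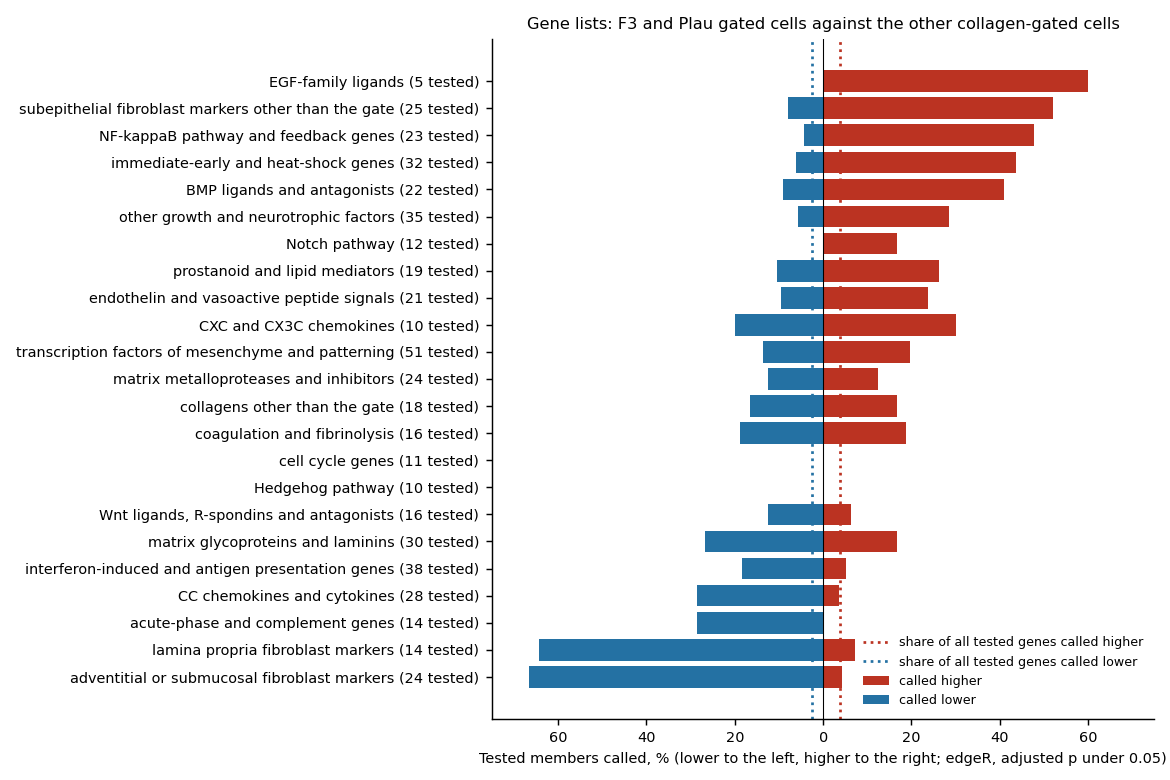
Share of the tested members of 23 gene lists called higher (right) or lower (left) in the gated cells than in the other collagen-gated cells, with dotted lines at the share of all tested genes, 3.89% and 2.62%. The EGF-family, subepithelial and NF-kappaB lists lie furthest to the right (3 of 5, 13 of 25 and 11 of 23 higher) and the adventitial and lamina propria lists furthest to the left (16 of 24 and 9 of 14 lower).

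The other subepithelial type, cells with a UMI of 2 or more of Rbp4, Aldh1a1, Tmem158, Enho and Bean1, numbered 321 among the collagen-gated cells. It was the nearest reference, and 3 groups of sums were fitted in the same way. Of 10490 genes, 389 (3.71%) were called higher in the F3 and Plau gated cells and 201 (1.92%) lower, together 5.62%. Scaling by total UMIs alone gave 301 and 332, leaving out collection 1A gave 230 higher, and leaving out cells with markers of another type gave 312 and 232. Every collection lay above the reference for 208 genes (1.98%) and below it for 393 (3.75%). Both comparisons use the same sums of the gated cells, so their values are set side by side and the difference between them was not tested.

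The EGF-family ligands and Ptgs2 were higher against this type as well. Nrg1 was at 99.8 to 242 CPM in the Rbp4 and Aldh1a1 gated cells, and the F3 and Plau gated cells were higher by 3.10 ± 0.22 (edgeR, adjusted p = 9.6e-13). Ereg was at 372 to 541 CPM there and higher by 2.03 ± 0.17. Areg was at 41.6 to 192 CPM, a range that reached the 139 CPM of collection 2B, and higher by 2.38 ± 0.33. Ptgs2 was at 474 to 1051 CPM and higher by 2.25 ± 0.14 (edgeR, adjusted p = 1e-13). Ptgis, with 3 UMIs against 41, was called lower (edgeR, adjusted p = 0.01988), a call lost after thinning and at a limit of 5% mitochondrial UMIs. Il1rl1, Stc1 and Ndrg1 were higher by 3.54 ± 0.32, 3.20 ± 0.29 and 2.92 ± 0.18. The largest fold changes by the naming rule were Lrrc8d, a volume-regulated anion channel subunit (3.98 ± 0.73, on 22 against 3 UMIs), Smox, the spermine oxidase (3.90 ± 0.47, on 72 against 10), and Cpm, carboxypeptidase M (3.86 ± 0.88, on 20 against 3). The call of Lrrc8d was lost without collection 1A and that of Cpm with 2 or more gate genes.

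Of 23 tested NF-kappaB genes 14 were called higher and 0 lower against this type, with a median log2 fold change of 1.27 against -0.16 over all genes. The list summed to 0.694% ± 0.0837 of UMIs in the Rbp4 and Aldh1a1 gated cells. Nfkbia was at 1889 to 3357 CPM there and higher by 1.61 ± 0.09 (edgeR, adjusted p = 1.9e-14). Rel was at 24.0 to 130 CPM and higher by 2.63 ± 0.31, though collection 2C of the gated cells, at 99.1 CPM, lay within that range. Cxcl2, not called against the other collagen-gated cells, was at 147 to 374 CPM here against 470 to 1515 CPM and higher by 1.78 ± 0.22 (1.17 without replicate 1 and 2.23 without replicate 2). Cxcl1 was higher by 1.86 ± 0.12. Immediate-early and heat-shock genes were called higher in 13 of 32 and lower in 3, while the list summed to 4.33% ± 0.0239 of UMIs in the Rbp4 and Aldh1a1 gated cells, beside the 4.45% ± 0.240 above.

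Several markers called against the other collagen-gated cells were not called against the Rbp4 and Aldh1a1 type. Of the 25 tested subepithelial markers 5 were called higher and 5 lower. Adventitial or submucosal markers were lower in 8 of 24 tested members and higher in 0, beside 1.92% of all genes called lower. Clec3b, Cd55, Cd34 and Osr1 were among the 8, while Pi16, C3, Pcolce2 and Has1 were not called. Lamina propria markers were lower in 7 of 14 tested members and higher in 0. Bmp5 was at 441 to 586 CPM in that type against 368 to 743 CPM, and the difference of 0.33 ± 0.20 did not pass the test (edgeR, adjusted p = 0.4336). Bmp7 (0.63 ± 0.36), Wnt5a (0.89 ± 0.29), Fgf9 (0.94 ± 0.30), Agt (0.74 ± 0.25), Col4a5 (0.31 ± 0.27) and Pdgfra (0.41 ± 0.21) were not called either, which does not show equal levels. Bmp2, at 291 to 753 CPM there, was higher by 1.31 ± 0.18, a call lost with 2 or more gate genes, and Tnc by 1.45 ± 0.16. Bmp4 was lower at 365 to 614 CPM against 798 to 1140 CPM, by -0.82 ± 0.17 on the log2 scale (edgeR, adjusted p = 0.001167).

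The contractile genes were lower against this type. Tagln was at 66.4, 60.3, 158, 69.7 and 74.3 CPM against 167 to 580 CPM, and lower by -1.89 ± 0.34 on the log2 scale (edgeR, adjusted p = 0.0002). Acta2 (-1.59 ± 0.28), Myl9 (-1.65 ± 0.29) and Myh11 (-1.69 ± 0.28) were lower with overlapping collections. Leaving out cells with markers of another type kept the call of Tagln but not those of Acta2, Myl9 and Myh11, with 24 subepithelial markers tested. All 4 calls were lost among cells with at least 5 collagen-gate genes and no markers of another type. Cxcl12 was at 494 to 890 CPM there, and the gated cells were lower by -2.10 ± 0.22. Thbd was at 149 to 341 CPM against 24.1 to 55.3 CPM. Ccl8 had 50 UMIs there and 0 in the gated cells, at least 8.29-fold lower, and Fibin, whose call was lost at 4 or more gate genes, was at least 4.97-fold lower. Nos1, the neuronal nitric oxide synthase, had 29 UMIs against 0 and was called lower, a call lost without collection 2C.

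**Figure D5:**
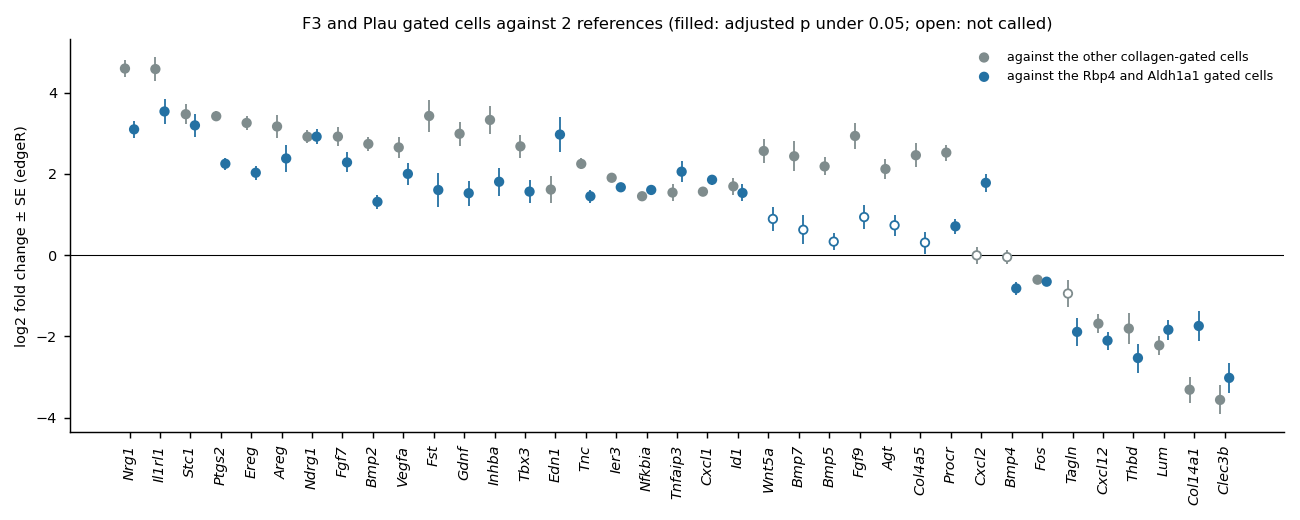
Fitted log2 fold changes ± SE of 37 genes in the gated cells against the other collagen-gated cells (grey) and against the Rbp4 and Aldh1a1 gated cells (blue), filled where called. Nrg1 lies at 4.60 and 3.10, Bmp5 at 2.19 and 0.33 (open, not called) and Cxcl2 at 0.00 (open) and 1.78. The same sums of the gated cells enter both.

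Within the gated cells the collections differed gene by gene. Nrg1, Il1rl1 (807 and 688 CPM against 122 to 474), Inhba, Cxcl14 and Fgf7 (641 and 796 CPM against 347 to 596) were above every collection of replicate 2 in both collections of replicate 1. Id1 lay the other way, at 719 and 446 CPM in replicate 1 and 958 to 1190 CPM in replicate 2. With 2 biological replicates such orders were not tested. Spread over cells was also uneven. The top 10% of cells held 27.4% of the Nfkbia UMIs, 29.0% of the Tnc UMIs and 33.2% of the Ptgs2 UMIs, but 48.2% of the Cxcl1 UMIs, 64.3% of the Stc1 UMIs and 70.2% of the Areg UMIs. Genes with few UMIs are concentrated by counting alone, so these shares compare only genes of like level.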

How the data were processed

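Drop-seq UMI counts per gene and barcode were deposited by the authors for 5 collections; the submitters' processing notes name STAR 2.6 and the mm10 build, and the counting program and annotation are not given in the sources used here. Library totals ranged from 1636550 to 3345732 UMIs. The members, gene lists and tests were chosen with earlier results of these data known. Cells were gated as described, and UMIs were summed per biological replicate and gate.

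Genes with at least 20 UMIs in the collagen-gated cells of each replicate were tested (10490 of 20355), without the 17 genes of the rule, with edgeR 4.0.16 (R 4.3.3; TMM, quasi-likelihood F test, replicate as block, Benjamini-Hochberg). The comparison with all other collagen-gated cells left 1 residual degree of freedom, so its spread rests largely on that estimated over all genes. DESeq2 1.42.0 was an alternative. Cells were not treated as replicates. On simulated counts of 10490 genes for the comparison with the other collagen-gated cells, 32 of 50 genes changed 4-fold upward and 10 of 50 changed 2-fold upward were recovered, against 15 of 50 and 3 of 50 changed as much downward, with 0 false calls. In the comparison with the Rbp4 and Aldh1a1 gated cells 33, 7, 15 and 3 of 50 were recovered, with 2 false calls. The simulation gave every gene the same spread beyond counting error, no difference between replicates and no choice of cells by their genes. Its rates of recovery and of false calls need not hold for the real counts.

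Named genes were the 12 largest called changes in each direction without overlap between collections, up to 4 called genes per list and direction, and the 8 largest in each direction against the Rbp4 and Aldh1a1 gated cells. Others were named after their values were seen. Gene locations are from GENCODE on GRCm38; of 180 genes named or considered, 177 were located and 81 overlap another annotated gene, whose reads may be shared.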

Additional observations from a re-analysis of the deposited data

Results flagged for a closer look

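Dixon's criterion is met by chance in about 1 gene in 20 where values are normally distributed. Sparse counts need not keep that rate, and a gene with UMIs in only 1 collection always meets it. In 15 of 175 genes examined, 1 of the 5 collections of gated cells stood apart from the other 4 by this criterion. In 8 of them that collection held the only UMIs, so the level is that of 1 UMI, or of 2 UMIs for Pcolce2: Bmper (17.5 CPM in 2A), Ccl21a, Hpgds and Pi16 (17.4 CPM each in 2B), Igtp, Lepr and Runx3 (12.1 CPM each in 1B) and Pcolce2 (22.1 CPM in 1A).

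The other 7 rest on more UMIs. Ccl2, a chemokine for monocytes, was at 942 CPM in 2C against 17.5 to 145 CPM, with up to 25 UMIs in 1 cell. Saa3, an acute-phase gene, was at 570 CPM in 2C against 0 to 12.1 CPM, and 21 of its 24 UMIs were in 1 cell. Il6 was at 139 CPM in 2B against 11.1 to 24.8 CPM. Fbln5, which encodes an elastic fibre protein, was at 99.1 CPM in 2C against 0 to 24.1 CPM. Tagln was at 158 CPM in 2A against 60.3 to 74.3 CPM. Foxf1 was low in 2A, at 35.1 CPM against 188 to 223 CPM, and Tnc was low in 2B, at 906 CPM against 1473 to 1701 CPM.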

How the results depend on the processing

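Of the named genes called against the other collagen-gated cells, 75 of 143 held their call under every alternative with a test, and of those called against the Rbp4 and Aldh1a1 gated cells 42 of 98. Leaving out either biological replicate, which leaves fold changes but no test, all 408 genes called higher and 275 called lower against the other collagen-gated cells kept their direction. The replicate block, part of the main fit, was removed as an alternative: without it 499 genes were higher and 401 lower against the other collagen-gated cells, and 363 and 180 against the Rbp4 and Aldh1a1 gated cells.

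Against the other collagen-gated cells, the count of higher genes was 216 at 4 or more gate genes, and that of lower genes was 117 with DESeq2, 788 with UMIs summed per collection and 561 without TMM factors. Against the Rbp4 and Aldh1a1 gated cells, the 389 higher genes became 645 and the 201 lower 328 at 2 or more gate genes, and 226 and 340 at 4 or more. Cells with at least 5 collagen-gate genes and no markers of another type gave 200 higher and 110 lower. Higher genes numbered 233 at a limit of 5% mitochondrial UMIs, 213 after thinning and 230 without collection 1A. Lower genes numbered 107 with DESeq2, 450 with UMIs summed per collection and 332 without TMM factors. The causes were not tested. The share of gated cells was 8.45% at 2 or more gate genes and 1.26% at 4 or more, and 2.98 to 4.10% with 1 replicate left out.

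Fold changes that reversed are given on the log2 scale. At 2 or more gate genes these were Ccl21a (0.65), Hpgds (0.0385), Ifit3 (0.58), Lcp2 (0.31), Mef2c (0.0288), Mmp12 (0.98), Mrc1 (0.0881) and Syk (0.15) against the other collagen-gated cells, and Dock10 (0.46) and Procr (-0.15) against the Rbp4 and Aldh1a1 gated cells. At 4 or more gate genes Hes1 was at -0.0791 and -0.0985 in these comparisons. Adamdec1 was at -0.0003 with 4 or more collagen-gate genes. With 5 or more and no markers of another type, Adamdec1 was at -0.13, H2-Aa at 0.14 and Igkc at 0.24. Ccl2 against the Rbp4 and Aldh1a1 gated cells was at -0.0277 without collection 2C, -0.0659 without replicate 2 and 2.39 without replicate 1. Results that were not called and became called in the opposite direction at 2 or more gate genes were Cxcl2 (1.05), Hbegf (0.65) and Plvap (0.99) against the other collagen-gated cells. Against the Rbp4 and Aldh1a1 gated cells they were Bcl2a1a (4.06), Bcl2a1d (3.66), Cd52 (3.98), Hpgds (2.65), Lcp2 (2.27), Mmp12 (8.85), Mrc1 (2.27), Pf4 (1.85), Spi1 (2.64), Syk (2.67) and Timp3 (0.85). Others were Cxcl2 without cells with markers of another type (0.88) and Saa3 without collection 2C (-3.28) against the other collagen-gated cells, and Plvap at 4 or more gate genes (-2.85) against the Rbp4 and Aldh1a1 gated cells.

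With 156 cells, 9.14 CPM is the level that a count of 0 allows, and a lower level could not be told from 0. Cells were chosen by genes measured in the same cells, so p-values are smaller than in independent cells. The reference includes cells with markers of other types. The labels give 2 biological replicates and no count of animals.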
